A study of Mus musculus with 4 samples.

Results

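The genes described here are 8 known for the handling of glutamate, potassium, water and carbon dioxide by Müller glia, the radial support cells of the retina: Glul, Slc1a3, Slc1a2, Kcnj10, Kcnj2, Aqp4, Aqp1 and Car2. They were taken by name, as 8 of the 24783 genes in the count matrix, and their unique molecular identifiers (UMIs, 1 per captured mRNA molecule) were summed over each cell class in each library. The study profiled single cells from mouse retina and choroid after laser burns that break Bruch's membrane and start choroidal neovascularisation (CNV), a model of the wet form of macular degeneration, and its stated interest was immune cells, NK cells and neutrophils in particular. Each of the 4 groups is 1 library of wild-type (WT) mice, either young (6 to 8 weeks) or aged (over 18 months), either without lesions (control) or 3 days after laser (CNV). The laser settings were 532 nm, 200 mW, 0.150 s and a spot of 100 µm. All libraries share the same preparation: retina and choroid-sclera were dissociated with papain in separate tubes, rods were depleted from the retinal cells with an antibody to CD73, and the suspensions were then pooled for 10x Genomics droplets. The number of animals behind a library and the number of burns per eye go unstated in the labels, which do not record whether a cell lay near a lesion.

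Müller glia span the whole thickness of the retina. They take up glutamate released by neurons through the transporters EAAT1 (Slc1a3, also called GLAST) and EAAT2 (Slc1a2, also called GLT-1), and glutamine synthetase (Glul) turns it into glutamine that neurons use again. Potassium released by active neurons enters them through the inward rectifiers Kir4.1 (Kcnj10) and Kir2.1 (Kcnj2) and leaves at the endfeet, where the water channel aquaporin-4 (Aqp4) is anchored next to Kir4.1. Aquaporin-1 (Aqp1) is a further water channel, and carbonic anhydrase II (Car2) interconverts carbon dioxide and bicarbonate. Glial injury responses in the retina are known to include more Gfap and less glutamine synthetase.

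The matrix held 36701 cells, and 35590 remained after predicted doublets were removed. Cells were clustered without the 8 genes and without the 4 lists of transport genes used below, so that those genes did not decide which cells were called Müller-like. Of the 45 clusters 38 were named by marker genes and 10.6% of kept cells stayed unnamed. The Müller-like class held 1194 cells: 392 and 185 from young control and CNV, 289 and 328 from aged control and CNV. From here on, values given in a row for the libraries keep this order. These cells carried between 1636901 and 3379572 UMIs per library, and their median UMIs per cell ran from 7366 (young control) to 10078 (aged control). In each library 7 or 8 of the 10 Müller markers were highest in this class and none was at 0. The same markers were used to name the class, so this is a description and no independent check. Astrocytes are another glial type of the retina and share Gfap with Müller cells. Their defining marker Pax2 had 9 UMIs in the Müller-like class in young control and 0 in the other libraries, and Igsf1 had 0 throughout. The summed level of the 7 astrocyte markers, Gfap among them, was 177, 389, 136 and 319 CPM (UMIs of a gene per 1e6 UMIs of the class). Of those 7 markers 3, 2, 2 and 1 were highest in the Müller-like class. The summed level of 11 rod genes in Müller-like cells, a sign of free RNA from broken rods, was 2675, 840.0, 1229 and 1566 CPM over the 4 libraries. There were 124 barcodes found in 2 or more libraries. With 1 library per group no difference between groups could be tested: every interval below is a 95% interval that covers counting error only, and differences between mice or preparations are not in it. A gene was counted as different when its CPM ratio passed 1.5-fold with at least 20 UMIs over both libraries.

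Glul, which encodes the enzyme that makes glutamine from glutamate and ammonia, was lower after laser in both ages, and by more in aged mice. In Müller-like cells it stood at 7828 CPM without lesions and 5658 after laser in young mice, and at 5724 and 2588 in aged mice. The aged CNV library was the lowest, the young control library the highest, and the other two lay side by side. After laser Glul was at 0.723 of the control level in young mice (0.705 to 0.741) and at 0.452 in aged mice (0.441 to 0.464), so the 1.5-fold line was passed in the aged pair only. The aged ratio divided by the young ratio was 0.626, with a counting interval of 0.604 to 0.648. Without lesions the aged library was at 0.731 of the young one (0.716 to 0.746), and after laser at 0.457 (0.444 to 0.471). Across 9 other ways of scaling the counts or choosing the cells, the aged laser ratio stayed between 0.374 and 0.492, and the young one between 0.722 and 0.849.

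Müller-like cells had the highest Glul level of all named classes in every library, but the margin narrowed. The next class, RPE-like cells (the pigmented epithelium behind the photoreceptors), had 755, 704, 948 and 892 CPM. Müller-like cells were therefore 10.4-fold above RPE-like cells in young control and 2.90-fold above them in aged CNV. In RPE-like cells the laser ratio of Glul was 0.933 in young and 0.941 in aged mice. In aged mice other classes were lower after laser, among them Schwann-like (0.410), erythroid-like (0.541), keratin-rich epithelium-like (0.683) and endothelial-like cells (0.763). Others were not, among them fibroblast-like (1.28) and rod-like cells (1.01). The Schwann-like ratio rests on 30 and 35 cells in aged control and CNV. The erythroid-like ratio rests on 36 and 20 cells, and Glul in that class was 73.0 CPM at most in any library. An unnamed cluster of 47 aged CNV cells, led by the fat-cell genes Cfd, Car3 and Adipoq, reached 3211 CPM of Glul and 798 CPM of Slc1a3, with Aqp4 and Kcnj10 at 0 UMIs.

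**Figure D1:**
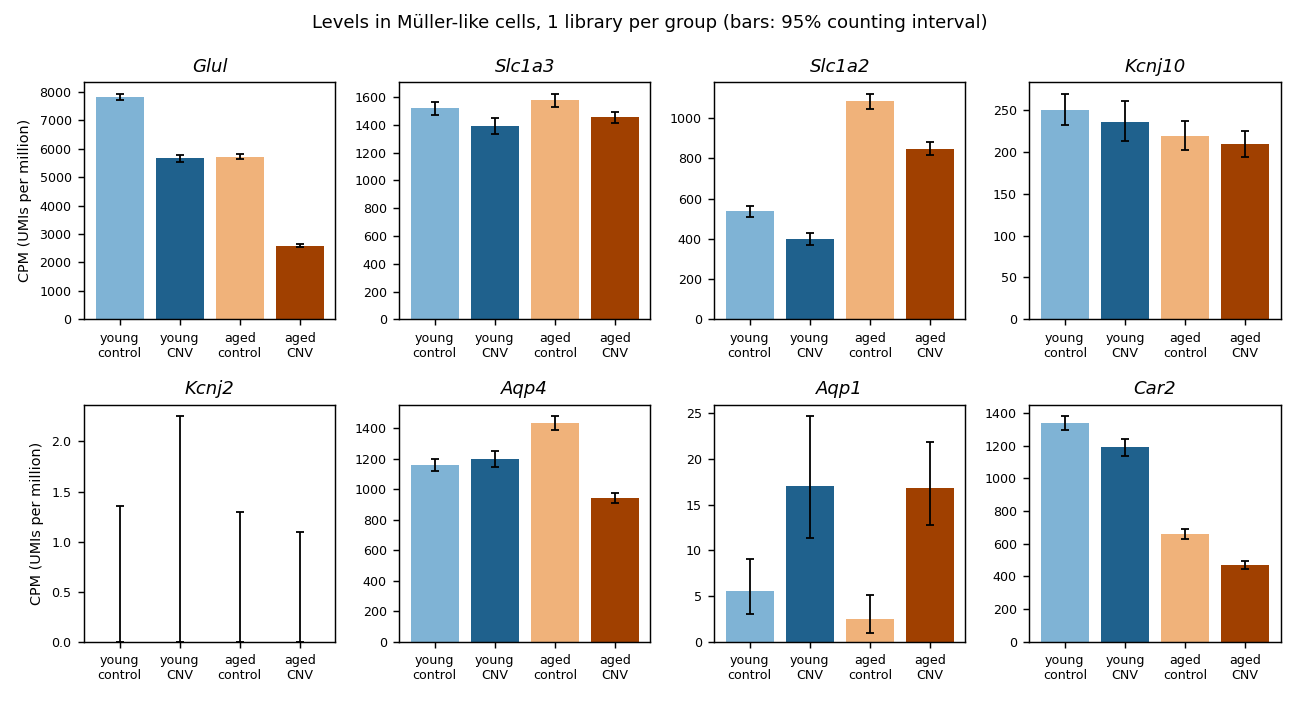
Each panel gives 1 gene in Müller-like cells, with the CPM of the 4 libraries as bars and 95% Poisson counting intervals as lines. Glul has its lowest bar in aged CNV (2588 CPM), Slc1a2 is higher in both aged libraries, Car2 is lower in both, Slc1a3 and Kcnj10 are nearly level, and Kcnj2 has no UMI.

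The per-cell values show how Glul was spread over the class. Cells were thinned to 1000 UMIs each so that depth was equal, which left 353, 168, 274 and 312 Müller-like cells. The median cell held 7, 6, 5 and 2 Glul UMIs. The upper tail moved as well, since 27.5% of young control cells and 4.81% of aged CNV cells had 10 or more. Cells without any Glul UMI made up 2.27% and 5.95% of the class in young control and CNV mice, and 4.74% and 26.6% in aged ones. Among rod-like cells thinned in the same way, which should lack Glul, the share with a UMI was 4.56% to 5.92%, so the 73.4% of aged CNV Müller-like cells with a Glul UMI (68.1% to 78.2%) lay far above free RNA.

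**Figure D2:**
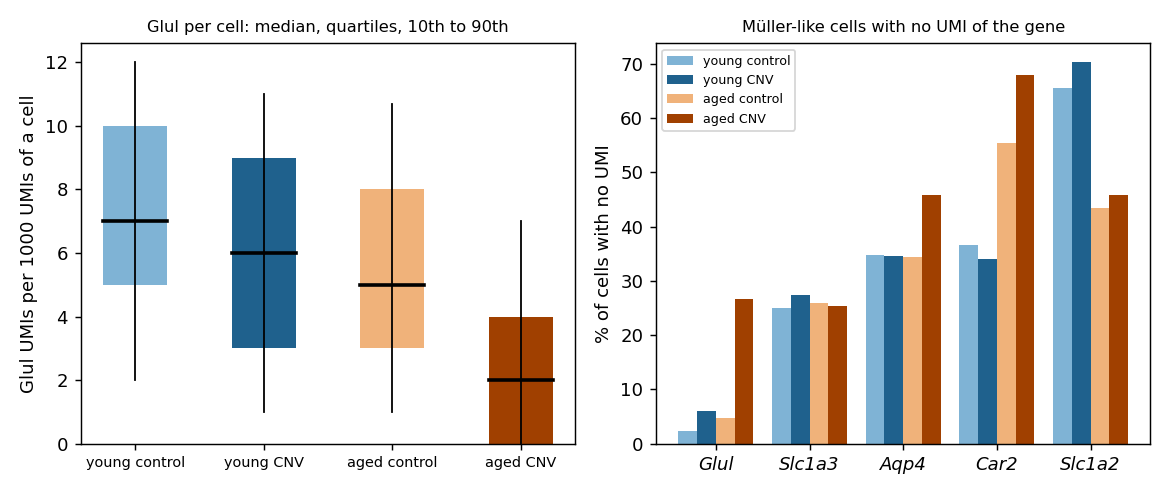
The left panel gives Glul UMIs per Müller-like cell after thinning to 1000 UMIs, with the median as a line, the quartiles as a box and the 10th to 90th percentile as a whisker. The right panel gives the percentage of these cells with no UMI of 5 genes in each library: for Glul it is 26.6% in aged CNV against 5.95% or less in the others, while for Slc1a3 the 4 bars are nearly equal.

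Slc1a3, the main glutamate transporter of Müller glia, was steady. It stood at 1519, 1393, 1577 and 1454 CPM. The laser ratio was 0.917 in young mice (0.871 to 0.965) and 0.922 in aged mice (0.885 to 0.960), and the age ratios were 1.04 without lesions and 1.04 after laser. None of the 4 ratios came near the 1.5-fold line. The share of cells with a Slc1a3 UMI after thinning was 75.1%, 72.6%, 74.1% and 74.7%. Among named classes this transporter was nearly private to Müller-like cells: amacrine-like cells, which had enough cells in the aged libraries only, came next at 98.7 and 136 CPM, and Müller-like cells were 10.7 to 77.4 times the next class of the same library.

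Slc1a2, the other glial glutamate transporter, differed by age. Its Müller-like level was 538 CPM without lesions and 399.5 after laser in young mice, and 1083 and 847 in aged mice, so that both aged libraries were above both young ones. The age ratio was 2.01 without lesions (1.89 to 2.15) and 2.12 after laser (1.95 to 2.31). After laser it was lower in both ages, at 0.743 in young (0.677 to 0.815) and 0.783 in aged mice (0.743 to 0.824), short of 1.5-fold, though the aged value passed it with cells picked by their own marker UMIs (0.659). The share of cells with a UMI after thinning went from 34.6% in young control to 56.6% in aged control. Rod-like cells had a share of 28.3% to 34.9%, so this gene is no marker of Müller cells here.

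The class with the most Slc1a2 was in fact the cone-like one, with 1652, 1739, 2335 and 2096 CPM. A splice form of EAAT2 is known from photoreceptors and bipolar cells. Bipolar-like cells had 439 to 629.8 CPM, a range that overlaps that of Müller-like cells, and rod-like cells 354 to 516. Cone-like cells, too, were higher in the aged libraries than in either young one. UMIs were counted per gene, so splice forms cannot be told apart.

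To show the sequence in front of the genes that behaved differently, the 250 bases before the RefSeq start of Glul (lower after laser), Slc1a3 (steady) and Slc1a2 (higher with age) are given from RefSeq (GRCm38.p6), 5′ to 3′ on the gene's strand. They lie at chr1:153899679-153899928 (plus strand), chr15:8710808-8711057 (minus strand) and chr2:102706188-102706437 (plus strand). Capitals mark matches, on either strand, to 7 short motifs: TATAAA (the TATA box), ATTGG (the CCAAT box), GGGCGG (a GC box), TGANTCA (AP-1), AACAAT (a SOX core), CAGCTG (an E-box) and TAATTA (a homeodomain core).
Glul: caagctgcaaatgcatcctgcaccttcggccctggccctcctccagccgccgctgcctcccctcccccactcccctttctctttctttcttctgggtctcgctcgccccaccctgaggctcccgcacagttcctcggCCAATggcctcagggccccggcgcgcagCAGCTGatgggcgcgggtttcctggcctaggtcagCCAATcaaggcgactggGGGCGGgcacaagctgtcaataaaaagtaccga
Slc1a3: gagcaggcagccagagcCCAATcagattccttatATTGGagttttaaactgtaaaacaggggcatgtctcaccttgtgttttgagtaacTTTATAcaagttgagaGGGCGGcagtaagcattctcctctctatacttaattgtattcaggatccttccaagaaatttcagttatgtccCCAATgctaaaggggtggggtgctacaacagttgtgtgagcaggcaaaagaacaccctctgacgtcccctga
Slc1a2: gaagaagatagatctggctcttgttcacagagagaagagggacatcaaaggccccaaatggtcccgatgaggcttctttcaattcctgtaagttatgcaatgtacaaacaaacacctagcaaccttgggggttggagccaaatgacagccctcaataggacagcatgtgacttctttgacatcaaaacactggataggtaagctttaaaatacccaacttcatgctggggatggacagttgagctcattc
The Glul window held 2 CCAAT boxes, 1 GC box and 1 E-box. The Slc1a3 window held 3 CCAAT boxes, 1 GC box and 1 TATA box. The Slc1a2 window held none of the 7. No 2 matches overlapped. Over all 32851 promoters of the table cut to the same length, a CCAAT box was found in 33.8%, a GC box in 32.7%, an E-box in 13.0%, a TATA box in 12.4%, a SOX core in 9.42%, AP-1 in 6.75% and the homeodomain core in 4.84%. The G and C content was 64.8% for Glul and 44.8% for both transporters, against a median of 52.4% over all promoters. A match is a description of the letters and not a binding site. RefSeq promoters were matched for 6 of the 8 genes, of which those of Kcnj10, Kcnj2 and Aqp1 are not printed.

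In the GENCODE annotation of mm10, the build of the count matrix, Glul spans chr1:153899944-153909723 on the plus strand, Slc1a3 chr15:8634124-8710764 on the minus strand, and Slc1a2 chr2:102658659-102790784 on the plus strand. The RefSeq start used for Slc1a2 lies inside that span. Kcnj10 spans chr1:172341210-172374085, Kcnj2 chr11:111066164-111076821, Aqp1 chr6:55336432-55348555 and Car2 chr3:14886273-14900770, all on the plus strand.

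Kcnj10, the Kir4.1 channel that carries most of the potassium current of Müller cells, hardly differed between libraries. It had 249.7, 235, 219 and 209 CPM. The laser ratios were 0.942 in young (0.829 to 1.07) and 0.952 in aged mice (0.854 to 1.06), and both intervals include 1. The young ratio ran from 0.934 to 1.08 over the 9 alternatives, below 1 in 5 of them. Between ages the ratio was 0.877 without lesions (0.786 to 0.980) and 0.887 after laser (0.782 to 1.01). An alternative gave a larger difference: with cells thinned to 1000 UMIs the aged-to-young ratio after laser was 0.572. Schwann-like cells, the myelinating glia of peripheral nerves, came next with 47.7 to 90.2 CPM, between 2.43 and 5.23 times below Müller-like cells.

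Kcnj2, the Kir2.1 channel, had 0 UMIs in Müller-like cells of all 4 libraries, which allows at most 0.888 to 1.83 CPM by the 3-count limit. Its UMIs were in other cells. Neutrophil-like cells had 31.3, 78.5 and 16.1 CPM in young CNV, aged control and aged CNV, on 3, 11 and 14 UMIs. Endothelial-like cells had 8.05, 8.57, 13.8 and 11.0 CPM over the 4 libraries. Kcnj16 (Kir5.1), which pairs with Kir4.1 in many glia, had 0, 0, 1 and 1 UMIs in Müller-like cells.

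Aqp4, the water channel of the endfeet, was close to private to the class and differed between the laser responses of the ages. Müller-like cells had 1157 CPM without lesions and 1199 after laser in young mice, and 1436 and 944 in aged mice. Aged control was the highest library and aged CNV the lowest. The laser ratio was 1.04 in young (0.979 to 1.10) and 0.657 in aged mice (0.627 to 0.689), and the aged ratio divided by the young ratio was 0.634 (0.590 to 0.682). The aged value sits on the 1.5-fold line. It was 0.671 without a small Müller-like cluster of few UMIs per cell, led by Gfap, Crym and Espn. It was 0.673 with predicted doublets kept and 0.732 with thinned cells. All of these were short of the line, while 0.530 with cells picked by their own marker UMIs was well past it. No other named class exceeded 42.4 CPM in any library, and the Müller-like level was 22.3 to 177 times that of the next class. Keratin-rich epithelium-like cells had 33.8 CPM in aged CNV (305 UMIs) against 4.27 to 6.87 CPM in the other libraries.

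Aqp1 was highest in endothelial-like cells in every library. Endothelial-like cells had 1445, 1143, 1104 and 1229 CPM, and fibroblast-like cells 141, 100.1, 159.8 and 159.6 CPM. Within the endothelial-like class the level depended on the cluster. The cluster led by Fabp4, Timp4 and Gpihbp1, genes of capillary endothelium in fat and muscle, had 2280 to 3196 CPM, and the one led by Plvap, Cldn5 and Ptprb had 638 to 1043 CPM. The first of these made up 40.9% of endothelial-like cells in young CNV and 5.52% in aged control, so the class level mixes levels per cell with the make-up of the class. Rod-like cells had 68.0 to 85.8 CPM, and after thinning 7.09% to 8.34% of them carried an Aqp1 UMI against at most 1.04% of T-like cells.

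In Müller-like cells Aqp1 had only 15, 28, 7 and 57 UMIs, or 5.52, 17.1, 2.47 and 16.9 CPM. The median of the other classes was 13.9, 15.5, 3.70 and 13.2 CPM, so the Müller-like level was close to that of classes not known for Aqp1. The laser ratios of 3.10 in young and 6.84 in aged mice rest on these few UMIs. They were 1.15 and 3.13 with predicted doublets kept, and with cells picked by their own marker UMIs the aged ratio was 1.24.

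Car2, the carbonic anhydrase, differed by age in the other direction from Slc1a2. Müller-like cells had 1337 CPM without lesions and 1189 after laser in young mice, and 657 and 468 in aged mice, with both aged libraries below both young ones. The aged-to-young ratio was 0.491 without lesions (0.464 to 0.520) and 0.394 after laser (0.368 to 0.421). The laser ratio was 0.889 in young (0.841 to 0.940) and 0.712 in aged mice (0.666 to 0.762), short of 1.5-fold, though the aged value passed it in thinned cells (0.657) and with cells picked by their own marker UMIs (0.605). Car2 was also present in neurons. Amacrine-like cells had 522 CPM in aged control and 371 in aged CNV, and bipolar-like cells 268 to 527 CPM over the 4 libraries. Müller-like cells were 3.63 times the next class, bipolar-like cells, in young control, and 1.26 times the next class in both aged libraries, where it was amacrine-like cells, a class with too few cells to be compared in young mice. Rod-like cells carried a Car2 UMI in 14.5% to 23.8% of thinned cells, and Müller-like cells in 63.5%, 66.1%, 44.5% and 32.1%.

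**Figure D3:**
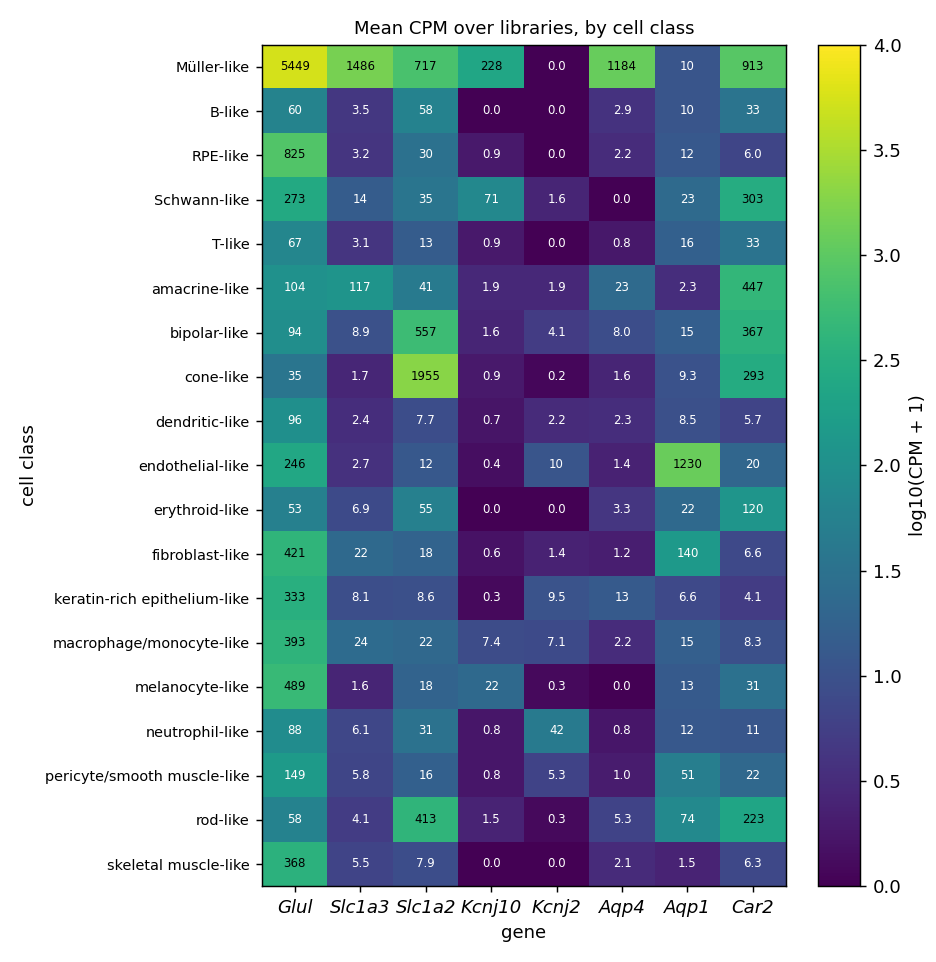
Rows are the cell classes with at least 20 cells in a library, columns are the 8 genes, and each square gives the mean CPM over libraries, coloured by log10(CPM + 1). Glul, Slc1a3, Kcnj10, Aqp4 and Car2 are highest in the Müller-like row, Slc1a2 in the cone-like row (1955 CPM), Aqp1 in the endothelial-like row (1230 CPM) and Kcnj2 in the neutrophil-like row (42 CPM).

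Over the class, 7 of the 8 genes had the 20 UMIs needed for a comparison. In young mice 1 gene was higher after laser (Aqp1) and 0 were lower, where 8.39% of the 12136 genes tested in Müller-like cells were higher by 1.5-fold and 13.2% lower. In aged mice Aqp1 was higher and Glul and Aqp4 were lower, against 17.4% of 13342 genes higher and 9.07% lower. Without lesions Slc1a2 was higher in aged mice, and Aqp1 (on 22 UMIs) and Car2 were lower, against 13.8% higher and 18.5% lower. After laser Slc1a2 was again higher, and Glul and Car2 were lower, against 20.9% higher and 12.1% lower. The median log2 ratio of the 7 genes was −0.13, −0.35, −0.19 and −0.17 in these comparisons, beside −0.08, 0.01, 0.02 and 0.11 over all genes tested. Another scaling shifted the last of those medians from 0.11 to −0.02 and changed none of the 1.5-fold calls of the 8 genes.

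**Figure D4:**
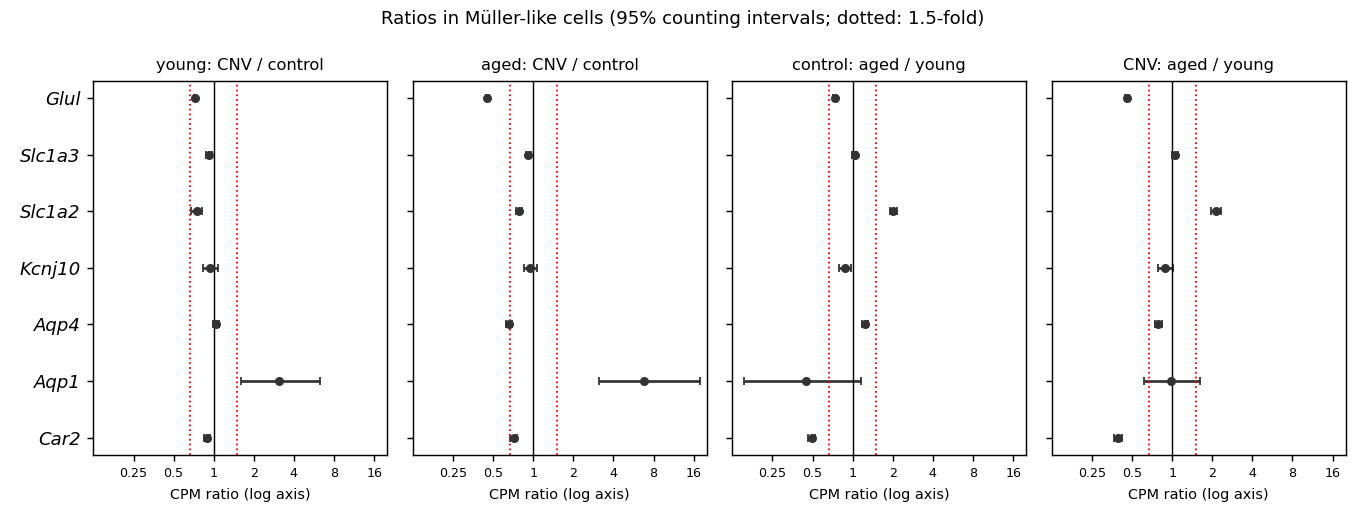
The CPM ratio of 7 genes in Müller-like cells is shown on a log axis for the laser comparison in young and in aged mice and for the age comparison without and with lesions, with 95% counting intervals and dotted lines at 1.5-fold. Glul and Aqp4 lie on or past the lower line in aged mice after laser, while Slc1a2 (above) and Car2 (below) pass it in both age comparisons.

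Injured Müller cells make Gfap, an intermediate filament, so the class was split by whether a cell held a Gfap UMI after thinning to 2000 UMIs. This split was chosen after the data had been examined and compares cells of 1 library, not conditions. Cells with fewer than 2000 UMIs were dropped, which left 321, 155, 255 and 292 Müller-like cells. Cells with Gfap were 0.312% and 8.39% of those left in young control and CNV mice, and 4.71% and 19.9% in aged ones. In aged CNV the 58 cells with Gfap had 1784 CPM of Glul and the 234 without had 2927, a ratio of 0.610 (0.524 to 0.706). The 13 Gfap cells of young CNV had a ratio of 0.416 (0.324 to 0.527). Aqp4 and Slc1a2 were lower in the Gfap cells of aged CNV, at 0.629 and 0.599, while Slc1a3 was at 0.924 (0.774 to 1.10), Car2 at 0.901 (0.644 to 1.24) and Kcnj10 at 1.63 (1.05 to 2.49). The 234 aged CNV cells without Gfap were themselves below the corresponding 243 cells of aged control, at 5788 CPM of Glul. A cell with no Gfap UMI may still make Gfap, since 2000 UMIs sample only part of its RNA. Most cells of the small Müller-like cluster led by Gfap were left out of the split, at a median of 1058 UMIs. Unthinned, that cluster had 6671, 3397, 8903 and 1531 CPM of Glul. The main Müller-like cluster had 7873, 5699, 5686 and 2628 CPM, so the Gfap-led cluster was higher in aged control only. Slc1a3 was lower in the Gfap-led cluster in every library, at 480 to 819 CPM against 1409 to 1589.

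**Figure D5:**
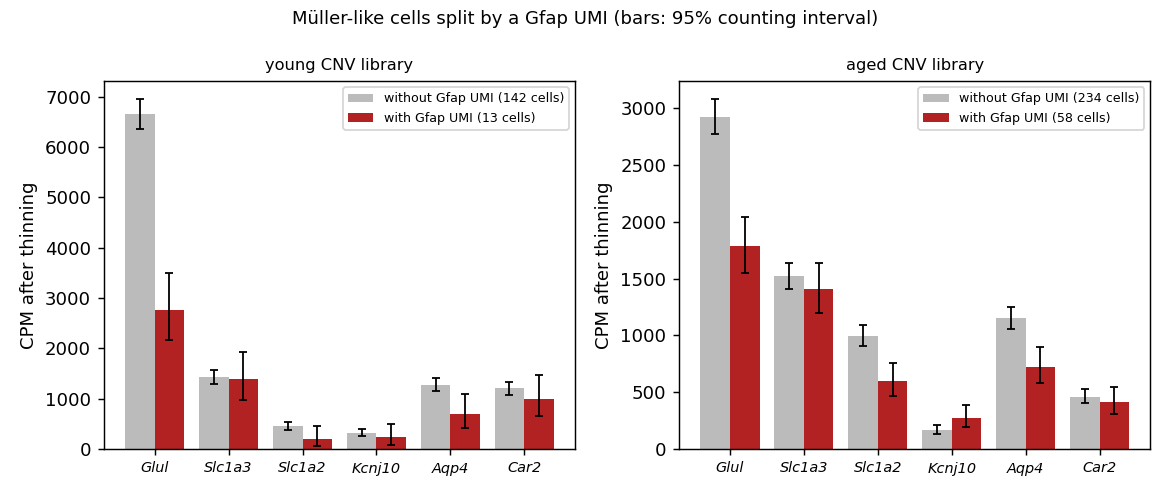
Bars give the CPM of 6 genes in Müller-like cells with (red) and without (grey) a Gfap UMI in the young CNV and the aged CNV library, after thinning to 2000 UMIs per cell, with 95% counting intervals. Glul is lower in Gfap cells in both libraries (2769 against 6655 CPM in young CNV, 1784 against 2927 in aged CNV), and Slc1a3 bars overlap.

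The wider glutamate list held 17 genes besides the 8. In young mice after laser 3 of 14 tested were higher and 2 lower, and in aged mice 4 of 15 were higher and 2 lower. Over all genes tested in Müller-like cells, 8.39% were higher and 13.2% lower after laser in young mice. In aged mice 17.4% were higher and 9.07% lower. The same shares stand beside the laser counts of the lists that follow. Among those lower in aged mice was Slc38a3, the transporter SNAT3 through which glia release glutamine. It had 272, 236, 197 and 108 CPM, with a laser ratio of 0.551 in aged mice (0.482 to 0.630). As for Glul, young control was highest and aged CNV lowest. Slc7a11, the cystine-glutamate exchanger, went the other way, from 21.0 CPM in young control to 51.3, 47.9 and 90.8.

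Of the 14 potassium and sodium genes, 11 were tested in young mice after laser, with 1 higher and 1 lower, and 12 in aged mice, with 3 higher and 2 lower. Kcnk1, a background potassium channel, stayed within 1.5-fold in both laser comparisons, at 1.19 and 0.768.

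All 13 genes of the water list (anchors and volume regulators) were tested, with 1 higher and 2 lower after laser in young mice and 0 higher and 2 lower in aged mice. Sntb1, a syntrophin of the complex that holds membrane channels, was at 753, 585, 1277 and 850 CPM, with an aged laser ratio of 0.665 (0.633 to 0.699) close to that of Aqp4. Dag1, the dystroglycan of the same complex, had 121, 118, 124 and 139 CPM, within 1.5-fold in the laser comparisons. Utrn (utrophin) was 2.20 times higher in aged control than in young control. In the acid and lactate list, 8 genes were tested in young mice after laser (0 higher, 1 lower) and 9 in aged mice (2 higher, 0 lower). Car14, the membrane carbonic anhydrase of Müller cells, had 555, 552, 436 and 313 CPM, lower with age like Car2, with an aged-to-young ratio after laser of 0.567.

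Genes that mark Müller cells without a transport role were counted in the same way. Most of them, Rlbp1 and Dkk3 among them, were also markers used to name the class, so they are no independent gauge of it. Vim is in this list and in the reactive glia list. Of the 11 identity genes, 2 were higher and 0 lower after laser in young mice, and 2 were higher and 3 lower in aged mice. Rlbp1, the retinaldehyde-binding protein of Müller and RPE cells, was at 2438, 1944, 2276 and 1242 CPM, with an aged laser ratio of 0.546, while Dkk3 was at 2161, 2164, 2660 and 2309 with a ratio of 0.868. Of the reactive glia list, 9 of 11 tested genes were higher after laser in young mice and 12 of 12 in aged mice, with 0 lower. Gfap itself was at 55.9, 249, 36.3 and 219 CPM. The share of cells with a Gfap UMI in the split above was 8.39% in young CNV and 19.9% in aged CNV. How either measure relates to the Glul level was not tested. Rod free RNA differed in most comparisons. Of 11 rod genes 11 were lower after laser in young mice and 1 was higher in aged mice. With age, 9 were lower without lesions, and 9 were higher and 1 lower after laser. Over all genes tested, 13.8% were higher and 18.5% lower with age without lesions, and 20.9% and 12.1% after laser. The mitochondrial share of the UMIs of Müller-like cells was 1.15%, 1.89%, 0.493% and 1.29%. The part of either in the results was not tested. Leaving mitochondrial and rod genes out of the totals moved the Glul laser ratios to 0.727 and 0.456.

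Across 56 pairs of class and library (18 classes of at least 50 cells, 10405 genes), the genes whose log2(CPM + 5) followed each member most closely were listed as a description, since pairs of a library share depth and free RNA. Aqp4 was followed by Qrfpr (Pearson r of 0.97), Mlc1 (0.96) and Shisal2b (0.96), Kcnj10 by Sox2 (0.95) and Greb1 (0.93), and Slc1a3 by Begain (0.94), Slitrk2 (0.92) and Pdyn (0.92). Glul was followed by Ttc12 (0.88), Sox9 (0.84) and Pdpn (0.83). Slc1a2 went with Fam169a (0.93), Tmem150c (0.93) and Rnft2 (0.91), Car2 with Amph (0.89), Phyhipl (0.87) and Ank3 (0.86), Aqp1 with the endothelial genes Tmem204 (0.87), Erg (0.87) and Adcy4 (0.85), and Kcnj2 with Ets2 (0.76), Zfhx3 (0.72) and Hlx (0.72). Among the 8 themselves the closest pair was Slc1a3 and Aqp4 (0.90).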

How the data were processed

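Droplet single-cell RNA-seq was made from 4 libraries, 1 per group. The deposited matrix holds UMI counts per gene and cell, whole numbers with no normalization; the submitters' processing notes name Cell Ranger, Seurat 4.1.1 and mm10, with no Cell Ranger version; the annotation is not given in the sources used here. Cells were assigned to libraries by barcode prefix; the prefix letter e was read as aged, the only other age. Total UMIs were 50848238 to 111908519 per library. Predicted doublets were removed, cells were clustered (scanpy 1.11.5, Leiden) without the 8 genes and the transport lists, and clusters were named from marker lists. Summed UMIs of a class in a library were given as CPM with exact Poisson intervals, ratios with exact conditional binomial intervals and shares with Clopper-Pearson intervals (95%). With 1 library per group there is no test and no p-value. The edgeR 4.0.16 trimmed mean was used as an alternative scaling only. The interval code was tested on simulated data. Besides the 8 genes, the text names, per list and comparison, up to 3 transport genes with the largest ratio by the interval bound nearest 1 that reached at least 0.1 of the top class, 6 partner genes, and the 3 genes most alike each member; a few genes that meet this rule are not reported here. Genes and clusters named outside that rule (the reactive and identity genes) were chosen after their values were seen. The members and lists were chosen with earlier results of these data known. No sample column was left unused.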

Additional observations from a re-analysis of the deposited data

Results flagged for a closer look

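In several classes other than Müller-like cells the laser ratio of a member lay above 1 in 1 age and below 1 in the other, with neither counting interval reaching 1. These differences were not tested, since each ratio compares 1 library with 1 library. For Glul the young and aged ratios were 0.607 and 1.28 in fibroblast-like cells, 0.836 and 1.77 in pericyte/smooth muscle-like cells, 1.40 and 0.410 in Schwann-like cells, and 1.23 and 0.683 in keratin-rich epithelium-like cells. For Car2 they were 1.43 and 0.888 in bipolar-like cells and 1.15 and 0.808 in cone-like cells. The make-up of the bipolar-like class differed between libraries: its main cluster, led by Lrrtm4 and Asic2, had 340 CPM of Car2 in young control and 338 in young CNV, and a cluster led by Erbb4 and Slit2 with 1241 CPM made up 17.4% of the class in young CNV and held 6 cells in young control. For Aqp1 in endothelial-like cells they were 0.791 and 1.11. The opposite directions did not hold in the main endothelial-like cluster, led by Plvap, Cldn5 and Ptprb, where Aqp1 was lower after laser in both ages, at 1006 and 638 CPM in young mice and 1043 and 949 in aged mice. The cluster led by Fabp4, with more Aqp1, was 5.52% of the class in aged control and 20.8% in aged CNV. In that cluster the directions were opposite, at 3196 and 2280 CPM in young mice and 2564 and 2802 in aged mice. The aged pair there rests on 23 and 96 cells, and its counting intervals overlap (2269 to 2887 and 2660 to 2949). The part of the class make-up in the Aqp1 ratios was not tested.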

How the results depend on the processing

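No paired analysis was possible because each group is a single library. Counts of members past 1.5-fold kept within 1.5 times their value under all alternatives except in young mice after laser, where Aqp1, the only gene counted, dropped out and 0 remained with predicted doublets kept, with cells picked by their own marker UMIs and with cells thinned to 1000 UMIs. Among the transport lists the count in aged mice after laser went from 15 to 9 with doublets kept and to 3 with thinned cells, and that for age after laser from 22 to 13 with thinned cells, where fewer genes reach 20 UMIs. At a fold of 2 the list counts were 4, 5, 5 and 10 for young laser, aged laser, age without lesions and age after laser. They were out of 46, 49, 48 and 50 list genes tested. The share of all genes was not computed for a fold of 2, for kept doublets or for thinned cells. The list counts under those settings therefore cannot be set against all genes. The share of all genes past 1.5-fold in either direction was 21.6%, 26.5%, 32.3% and 33.1%, and with no filter beyond 1 UMI 42.9%, 44.2%, 48.5% and 50.7%. With a minimum of 100 UMIs it was 12.8% in young laser. The share of Müller-like cells with a Glul UMI, thinned to 2000 UMIs, was 100% and 98.1% in young control and CNV mice and 99.2% and 87.7% in aged ones, and without thinning 97.3% in young CNV mice, and 98.3% and 92.1% in aged ones. Of the member ratios and the shares of other genes, 199 values stayed within the counting interval of the reported one and 103 did not, and no called ratio changed direction. The cause of these moves was not tested.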
